A study of Homo sapiens with 6 samples.

Results

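The histone lysine demethylases described here are 10 genes, KDM2A, KDM2B, KDM3A, KDM3B, KDM4A, KDM4B, KDM4C, KDM5A, KDM5B and KDM6B. They were taken by gene name from the 44591 genes listed in the count files, and each name occurred once. The libraries came from A2780, an established human ovarian cancer cell line labelled wild type, which the labels say was grown in DMEM with serum. Of 6 libraries of polyadenylated RNA, 3 were from untreated cells (labelled control, 48 h) and 3 from cells given human recombinant CRMP2 (r-CRMP2) at 40 ng/ml for 48 h. CRMP2, also called DPYSL2, is a microtubule-associated protein, and the comparison asks which genes respond when it is added to cancer cells from outside. Whether the untreated cells received the carrier of the protein is not given in the sources used here. Nothing in the labels says that the replicates came from separate cultures, so the p-values measure the spread between these libraries, which may be technical.

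These enzymes remove methyl groups from lysines of histone tails. All 10 proteins carry a Jumonji C (JmjC) domain, which uses iron, oxygen and 2-oxoglutarate and so ties the reaction to oxygen supply and metabolism. KDM2A and KDM2B act on lysine 36 of histone H3, KDM3A and KDM3B on mono- and dimethylated lysine 9, the KDM4 enzymes on trimethylated lysine 9, KDM5A and KDM5B on lysine 4, and KDM6B on lysine 27. Methylation of lysines 9 and 27 is known as a mark of silent chromatin, and trimethylated lysine 4 as a mark of active promoters. KDM3A, KDM4B and KDM4C are known as genes that hypoxia-inducible factors switch on.

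Because several of these genes are known targets of hypoxia-inducible factors, their promoters were searched for the core that these factors bind, ACGTG or GCGTG, on either strand. RefSeq (GRCh38.p14) gave 16 windows for the 10 genes, each reaching from 250 bases before to 50 bases after a transcription start. A core lay before the start in 12 of the 16 windows (75%), against 43.2% of all 35116 RefSeq promoters. Windows of 1 gene are not independent, and the 2 windows of KDM3A overlap and hold the same core, which counts in both. The member windows had a median GC content of 63.8%, against 58.7% for all promoters. KDM3B was the 1 gene of the 10 with no core before the start. KDM5A and KDM5B, which like KDM3B did not pass the test given below, each had 1. ACGTG is also part of the palindrome CACGTG, the binding sequence of MYC and related factors, which holds a core on both strands. A match only describes the letters of the window. The following stretches show 1 core each from the genes whose counts differ most in what follows, on the strand of the gene, with the core in capitals.

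KDM3A, chr2:86441333-86441362, plus strand: ccgggaggctgtGCGTGtcttgtgagagct
KDM4A, chr1:43650058-43650087, plus strand: ggtggctgcggcGCGTGctcattggctggt
KDM4B, chr19:4968863-4968892, plus strand: gtcagcgggcACGTGggtgggcgccggcgt
KDM4C, chr9:6757931-6757960, plus strand: gccccagcggtcACGTGacggcgcgcgcgc
KDM6B, chr17:7833974-7834003, plus strand: ccttagaagggcGCGTGatccaaatgagta

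The core of KDM3A began 26 bases before the nearer of its 2 listed starts, and that of KDM4C 30 bases before its start. The core of KDM4A began 79 bases and the one shown for KDM4B 240 bases before the start. Counting both strands, KDM4B had 4 cores before its start, the nearest beginning 77 bases before it, and KDM4C had 5. The core of KDM6B began 231 bases before 1 of its 2 listed starts, and the window of the other start held none. The first bases after the start used for KDM6B or KDM4A were not found near the beginning of a transcript in GENCODE, another annotation. Those after the other start of KDM6B, and after the starts of KDM3A, KDM4B and KDM4C, were found. In KDM4B and KDM4C the core shown is part of the palindrome.

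Between 21888530 and 25711353 reads were counted per library. The share of counts from mitochondrial genes was 6.19% to 6.59% in the untreated libraries and 3.76% to 4.10% in the r-CRMP2 libraries. TMM factors, which rescale libraries on the assumption that most genes do not change, were 1.10 to 1.12 in untreated and 0.878 to 0.922 in r-CRMP2 libraries. The epithelial keratins KRT8 and KRT18 were abundant in every library (1219 to 1494 CPM, counts scaled to a library of fixed size after TMM). MUC16, an ovarian marker, had 34.9 to 50.4 CPM in untreated and 27.9 to 39.1 CPM in r-CRMP2 libraries. PAX8 and EPCAM of the same epithelial and ovarian list lay between 3.09 and 6.27 CPM, and WT1 and CDH1 had at most 5 counts. KRT19 had 25 to 53 counts. Of the 6 tested in this list, 1 was higher and 1 lower after TMM, against 28.2% and 30.1% of all genes. The summed level of 10 fibroblast markers was 590 to 661 CPM in untreated and 522 to 545 CPM in r-CRMP2 libraries, mostly from COL1A1, and FAP had at most 9 counts. Of the 9 tested, 4 were higher after TMM (COL1A2, LUM, PDGFRA and THY1) and 2 lower (COL1A1 and PDGFRB), against 28.2% and 30.1% of all genes. A list of 8 leukocyte and endothelial markers summed to 28.7 to 32.7 CPM in untreated and 74.0 to 79.9 CPM in r-CRMP2 libraries. CD68 gave 21.25 to 25.72 CPM of this in untreated and 71.8 to 77.9 CPM in r-CRMP2 libraries, whereas CDH5, an endothelial cadherin, was lower with r-CRMP2 (4.89 to 5.78 against 1.11 to 1.52 CPM). PTPRC, CD3E, CD14 and KDR, which were below the filter on low counts, had at most 15 counts. All 7 genes of a stress and growth arrest list were higher with r-CRMP2 after TMM, where 28.2% of all genes tested were. Their sum was 468 to 490 CPM in untreated and 791 to 950 CPM in treated libraries. TXNIP gave 241.7 to 252.8 CPM of this in untreated and 431.5 to 538.6 CPM in r-CRMP2 libraries. The part of these values in the results was not tested.

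KDM3A rose 2.08-fold with r-CRMP2. KDM6B and, by less, KDM4B, KDM4C, KDM2A and KDM2B were higher after TMM scaling, and KDM4A was lower. In bulk RNA, fewer cells of a kind and less RNA per cell cannot be told apart. All 10 genes passed the filter on low counts. At an adjusted p-value threshold of 0.05 (edgeR's quasi-likelihood test, Benjamini-Hochberg over 16222 genes), 6 of the 10 were higher, where 28.2% of all genes tested were, and 1 of 10 was lower, where 30.1% of all genes were. When libraries were scaled by their totals only, without TMM (library size alone), 2 members passed as higher and 3 as lower (13.4% and 52.1% of all genes). At a log2 fold change of at least 1 as well, KDM3A was the 1 gene higher, against 5.12% of all genes, and none was lower, against 8.86%. All 3 r-CRMP2 libraries lay above all 3 untreated libraries for 7 of the 10 genes (30.9% of all genes) and below them for KDM4A alone (33.3% of all genes). Their median log2 fold change was 0.30, against -0.03 for all genes tested, and these medians were -0.0060 and -0.34 with library size alone.

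**Figure D1:**
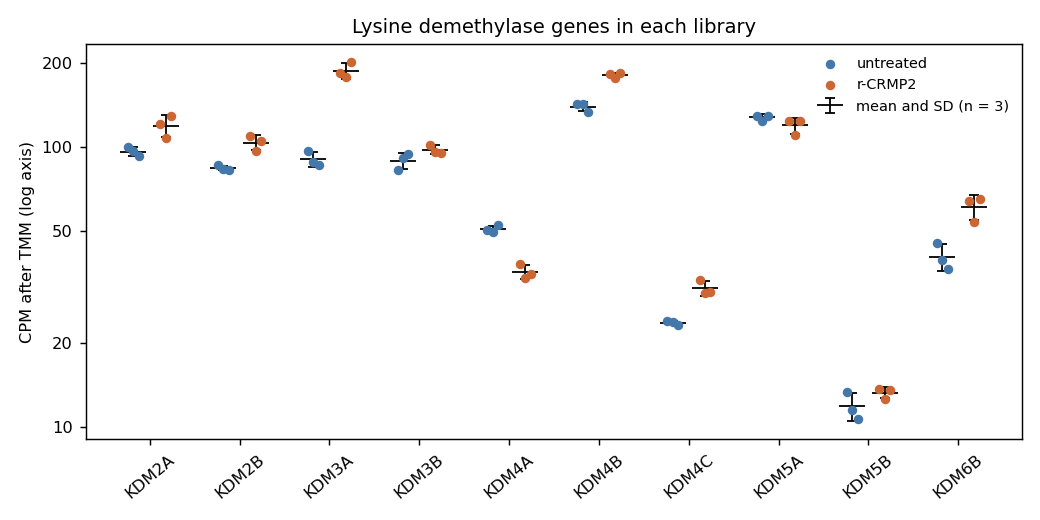
Level of each demethylase gene in each library, in CPM after TMM on a log axis, with the mean and SD of 3 libraries per group. The r-CRMP2 libraries of KDM3A lie at 178 to 201 CPM, above the untreated ones at 86.1 to 96.5 CPM, and those of KDM4A lie below the untreated ones.

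KDM3A (chromosome 2, 86668271 to 86719839 in the deposited hg19 positions), which removes 1 or 2 methyl groups from lysine 9, changed most. It had 96.5, 88.6 and 86.1 CPM in untreated replicates 1, 2 and 3, and 184, 178 and 201 CPM in r-CRMP2 replicates 1, 2 and 3. The groups did not overlap, and the lowest treated library was well above the highest untreated one. The mean rose from 90.4 ± 5.44 to 188 ± 12.3 CPM (SD, n = 3 each). On the log2 scale the change was 1.05 ± 0.07 (standard error), with an edgeR adjusted p of 2.13e-10. By the size of p, it ranked 246 among the 16222 genes tested. With library size alone its log2 fold change was 0.74 (adjusted p = 4.58e-08), so the rise stayed past the adjusted p-value threshold but fell short of a log2 fold change of 1.

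KDM3B (chromosome 5, 137688285 to 137772716), the paralogue with the same substrate, did not pass the test. It had 82.6, 91.5 and 94.3 CPM in the untreated libraries and 102, 96.2 and 95.4 CPM in the r-CRMP2 libraries. The groups did not overlap in CPM after TMM, but replicate 3 of each group differed by little. Its log2 fold change was 0.13 ± 0.07 (standard error; edgeR, adjusted p = 0.105). Its direction depended on the scaling, since with library size alone it was -0.18 (edgeR, adjusted p = 0.0337), and with an offset for gene length it was 0.20 (edgeR, adjusted p = 0.00907).

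Within the KDM4 enzymes, KDM4A was lower and KDM4B and KDM4C higher after TMM, while of these 3 only KDM4A passed with library size alone. KDM4A (chromosome 1, 44115797 to 44171189), which acts on trimethylated lysines 9 and 36, had 50.4, 49.7 and 52.6 CPM in untreated and 38.2, 34.2 and 35.1 CPM in r-CRMP2 libraries. Every treated library was below every untreated one. The log2 fold change of KDM4A was -0.51 ± 0.05 (standard error; edgeR, adjusted p = 6.42e-06), and -0.82 with library size alone. KDM4A-AS1, an antisense RNA that overlaps KDM4A, had at most 3.14% of the count of KDM4A in any library.

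KDM4B (chromosome 19, 4969124 to 5153609) had 142, 142 and 134 CPM in untreated and 182, 177 and 184 CPM in r-CRMP2 libraries. KDM4C (chromosome 9, 6720863 to 7175648), at a lower level, had 23.8, 23.8 and 23.2 CPM in untreated and 33.5, 30.03 and 30.3 CPM in r-CRMP2 libraries. In CPM after TMM, the groups did not overlap for either gene. After TMM the log2 fold changes were 0.37 for KDM4B (edgeR, adjusted p = 2.60e-05) and 0.41 for KDM4C (edgeR, adjusted p = 1.98e-04). With library size alone they were 0.06 and 0.10 and did not pass (edgeR, adjusted p = 0.345 and 0.323).

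KDM6B (chromosome 17, 7743235 to 7758118), also known as JMJD3, acts on lysine 27 and is known to be induced by stress and inflammatory signals. It had 45.6, 39.5 and 36.6 CPM in untreated and 64.0, 53.8 and 65.4 CPM in r-CRMP2 libraries. The groups did not overlap in CPM after TMM, though r-CRMP2 replicate 2 was nearer to the untreated libraries than the other r-CRMP2 replicates. KDM6B rose by 0.59 ± 0.13 on the log2 scale (standard error; edgeR, adjusted p = 1.11e-05). With library size alone it was 0.28 and still passed (edgeR, adjusted p = 0.0124).

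KDM2A (chromosome 11, 66886740 to 67025553) and KDM2B (chromosome 12, 121866899 to 122018920) bind unmethylated CpG islands through a CXXC zinc finger. KDM2A had 99.8, 96.6 and 92.6 CPM in untreated and 121, 108 and 129 CPM in r-CRMP2 libraries. KDM2B had 86.1, 83.7 and 83.1 CPM in untreated and 109, 96.6 and 106 CPM in r-CRMP2 libraries. In both, r-CRMP2 replicate 2 was the lowest treated library and was still above the untreated ones in CPM after TMM. The log2 fold changes were nearly equal after TMM, 0.31 for KDM2A (edgeR, adjusted p = 9.03e-04) and 0.30 for KDM2B (edgeR, adjusted p = 5.57e-04), but with library size alone they were -0.0020 and -0.01 (edgeR, adjusted p = 0.985 and 0.908).

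The members that act on lysine 4, KDM5A and KDM5B, did not pass the test. KDM5A (chromosome 12, 389223 to 498621) had 129, 124 and 130 CPM in untreated and 124, 111 and 124 CPM in r-CRMP2 libraries, and the groups overlapped. Its log2 fold change was -0.10 ± 0.06 (standard error; edgeR, adjusted p = 0.213), and with library size alone it was -0.41 and passed (edgeR, adjusted p = 4.80e-05). CCDC77 lies partly over KDM5A on the opposite strand with up to 39.6% of its count and a log2 fold change of -0.04. Whether strand was used in the counting is not given in the sources used here, so reads of the shared stretch cannot be told apart.

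KDM5B (chromosome 1, 202694313 to 202778598) was the least abundant member, with 249 to 372 counts per library. It had 13.4, 11.5 and 10.7 CPM in untreated and 13.7, 12.6 and 13.5 CPM in r-CRMP2 libraries, and the groups overlapped. Its log2 fold change was 0.16 with TMM (standard error 0.10, edgeR adjusted p = 0.224) and -0.15 with library size alone (edgeR, adjusted p = 0.255), neither of which passed.

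**Figure D2:**
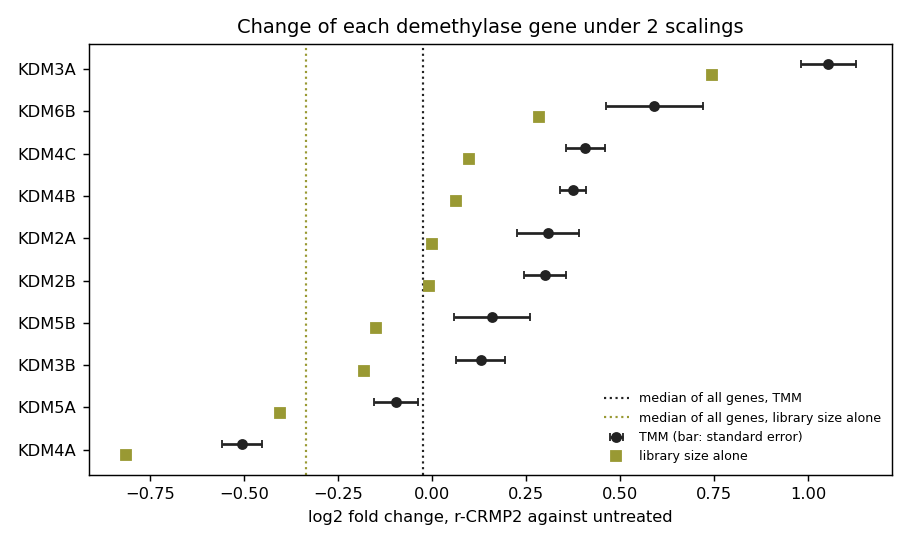
Log2 fold change (r-CRMP2 against untreated) of the 10 genes after TMM, with the standard error, and with library size alone, with dotted lines at the median of all genes under each scaling (-0.03 and -0.34). The scaling shifts all genes together, so their order hardly can change, with KDM3A farthest above and KDM4A farthest below the median.

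The choice of scaling moved the median log2 fold change of all genes from -0.03 with TMM to -0.34 with library size alone. A change of library factors shifts all genes by nearly the same amount. Distances from that median were therefore fixed in advance and are given only to place the members. KDM3A was 1.08 above it under either scaling, and KDM6B was 0.62 above it. KDM4B and KDM4C were 0.40 and 0.43 above it, KDM4A was at -0.48 and KDM5A at -0.07. The log2 fold change of KDM3A exceeded that of 95.2% of all genes tested, that of KDM6B exceeded 86.9%, and that of KDM4A exceeded 22.4%.

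Ratios within a library do not depend on the scaling between libraries, and 5 paralogue pairs were compared in that way. The ratios to KDM3B or KDM4A of KDM3A, KDM4B and KDM4C were higher in every r-CRMP2 library, and the ratio of KDM2B to KDM2A overlapped between groups. The log2 ratio of KDM3A to KDM3B counts was 0.22, -0.05 and -0.13 in the untreated and 0.85, 0.89 and 1.08 in the r-CRMP2 libraries, a difference of 0.92 (standard error 0.13). The ratio of KDM4B to KDM4A differed by 0.88 (standard error 0.07) and that of KDM4C to KDM4A by 0.91 (standard error 0.04). The ratio of KDM5B to KDM5A differed by 0.26 (standard error 0.09), and that of KDM2B to KDM2A by -0.01 (standard error 0.05). The groups did not overlap for the first 4 pairs, each with p = 0.1, or 0.125 adjusted over 5 pairs, in a two-sided exact permutation test. This is the smallest p that 3 against 3 libraries can give, so no pair could pass 0.05. For KDM2B to KDM2A the exact permutation p was 0.9. The pairs of KDM4B and KDM4C share the denominator KDM4A and are not independent. Ratios of other gene pairs were not computed.

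As shares of TPM, which divides counts by gene length, KDM3A made up 58.3% ± 3.11 of the KDM3A and KDM3B total in untreated cells and 72.6% ± 1.66 with r-CRMP2 (SD, n = 3). KDM4B made up 68.8% ± 1.40 and then 80.2% ± 0.840 of the total of KDM4B and KDM4A. KDM4C made up 22.1% ± 0.740 and then 34.8% ± 0.219 of the total of KDM4C and KDM4A.

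**Figure D3:**
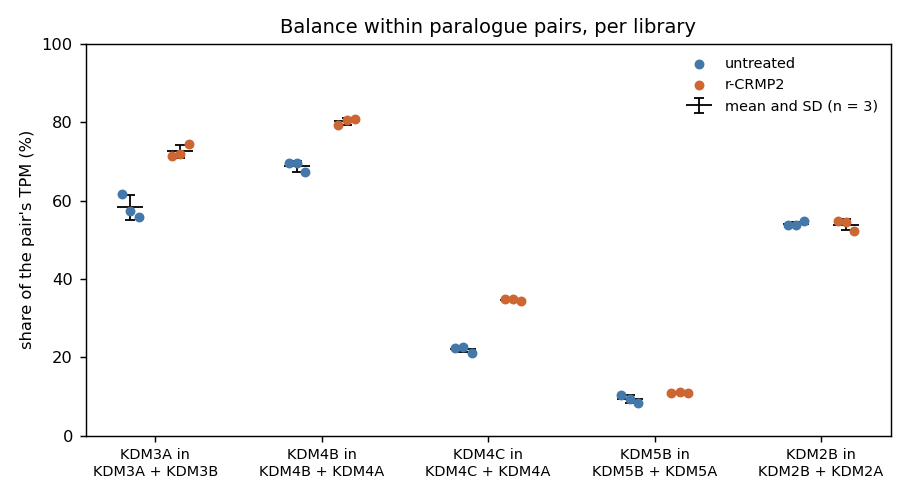
Share of the first-named gene in the summed TPM of each paralogue pair, in percent, for each library, with the mean and SD of 3 libraries per group. The groups separate for KDM3A, KDM4B and KDM4C, sit close together for KDM5B and overlap for KDM2B.

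Levels per length were compared between genes with the deposited TPM, which carry no correction of the TMM kind. In untreated cells the order was KDM4B (60.6 TPM), KDM3A (44.8), KDM2B (35.7), KDM3B (32.0), KDM2A (30.4), KDM5A (28.7), KDM4A (27.5), KDM6B (14.7), KDM4C (7.78) and KDM5B (2.96). Only the neighbours KDM3B and KDM2A, and KDM5A and KDM4A, overlapped in their ranges over the 3 libraries. With r-CRMP2, KDM3A (74.2 TPM, range 66.7 to 80.4) came first, and KDM4B (62.7 TPM, range 58.3 to 65.6) followed without overlap. KDM4A went from 27.5 ± 0.911 to 15.5 ± 1.59 TPM (SD, n = 3) and was then next below KDM6B (17.8 ± 2.56 TPM), with overlapping ranges. KDM2A was at 30.4 ± 0.924 and 30.1 ± 3.8 TPM, with overlapping ranges on this scale. KDM6B overlapped between groups too, at 13.35 to 16.3 TPM in untreated and 14.82 to 19.34 TPM in r-CRMP2 libraries. So did KDM2B, KDM3B, KDM4B, KDM4C and KDM5B.

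The summed TPM of the 10 genes was 281 to 288 in untreated and 265 to 314 in r-CRMP2 libraries, which overlap. Without KDM3A the sum was 238.4 to 243.3 and 198.7 to 237.8, so that the groups nearly met. This scale has no TMM factors, after which 5 of these 9 genes were higher. KDM3A took 15.7% ± 0.630 of the sum in untreated and 25.1% ± 0.953 in treated libraries (SD, n = 3). KDM4A went from 9.64% ± 0.434 to 5.23% ± 0.263 and KDM5A from 10.1% ± 0.302 to 7.25% ± 0.152. KDM4B held 21.2% in both groups.

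Across the 6 libraries, IRS2 and ARHGEF18 were among the 3 genes whose log2 CPM followed that of KDM3A most closely (Pearson r = 0.9996 and 0.9995). This is a description, since 2175 of 14131 genes had r above 0.95 over 6 libraries that fall into 2 groups.

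Of 16 further lysine demethylases and JmjC proteins, 15 were tested, with a median log2 fold change of 0.08. After TMM 6 of them were higher and 6 lower (28.2% and 30.1% of all genes). With library size alone 2 were higher and 8 lower (13.4% and 52.1% of all genes). JMJD6, a JmjC protein known as a lysine hydroxylase, had the largest rise, from 58.4 ± 6.77 to 158 ± 13.6 CPM (SD, n = 3; log2 fold change 1.44, edgeR adjusted p = 3.62e-11). RIOX1, a ribosomal oxygenase, fell from 12.7 ± 0.574 to 4.40 ± 1.25 CPM (SD, n = 3; log2 fold change -1.54, edgeR adjusted p = 1.18e-07). KDM4D, a KDM4 gene known mainly from testis, had between 3 and 58 counts and a log2 fold change of -3.23 (edgeR, adjusted p = 2.03e-06). KDM8, with 13 to 48 counts, had -1.13 (edgeR, adjusted p = 0.00493). With library size alone these 4 genes kept their direction and passed. HEATR4, which overlaps RIOX1 on the opposite strand, had 3 to 11 counts.

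Of 29 genes for lysine methyltransferases and the core of Polycomb complex PRC2, which write the marks, 11 were higher and 9 lower after TMM. Of all genes, 28.2% and 30.1% were. With library size alone 6 were higher and 16 lower (13.4% and 52.1% of all genes). The share lower was close to that of all genes under either scaling. None reached a log2 fold change of 1 in either direction. The smallest adjusted p belonged to EZH1, a lysine 27 methyltransferase, which rose from 26.6 ± 1.34 to 44.7 ± 0.607 CPM (SD, n = 3; log2 fold change 0.75, edgeR adjusted p = 5.79e-08). Scaled by library size alone, EZH1 changed by 0.44 and still passed. The median of this list was 0.03 with TMM, -0.02 with upper quartile factors and -0.28 with library size alone.

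Of 18 subunits of complexes that hold member proteins or KDM1A, 11 were higher and 1 lower after TMM (28.2% and 30.1% of all genes). With library size alone, however, the counts were 7 and 6 (13.4% and 52.1% of all genes). BCOR and RYBP, subunits of the variant Polycomb complex that KDM2B brings to CpG islands, passed both thresholds. BCOR rose from 87.3 ± 1.105 to 203 ± 10.6 CPM (SD, n = 3; log2 fold change 1.22, edgeR adjusted p = 9.25e-12), and RYBP from 17.9 ± 1.69 to 43.5 ± 4.16 CPM (SD, n = 3; log2 fold change 1.28, edgeR adjusted p = 7.42e-10). KDM2B itself changed by 0.30 after TMM and -0.01 with library size alone. The rises of BCOR and RYBP were 0.91 and 0.97 with library size alone and still passed at the adjusted p-value threshold.

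Of 18 other enzymes that share the 2-oxoglutarate cofactor, 8 were higher and 4 lower after TMM (28.2% and 30.1% of all genes). With library size alone 8 were higher and 9 lower (13.4% and 52.1% of all genes). EGLN3, a hydroxylase that marks HIF-α for destruction, and the collagen prolyl hydroxylase subunits P4HA1 and P4HA2 passed both thresholds, with log2 fold changes of 1.24, 1.21 and 1.05 (edgeR, adjusted p = 1.91e-11, 2.47e-11 and 2.35e-10). With library size alone they were 0.93, 0.90 and 0.74, which passed on adjusted p but fell short of a log2 fold change of 1. P4HA2-AS1, an antisense RNA over P4HA2, had 86 to 176 counts.

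**Figure D4:**
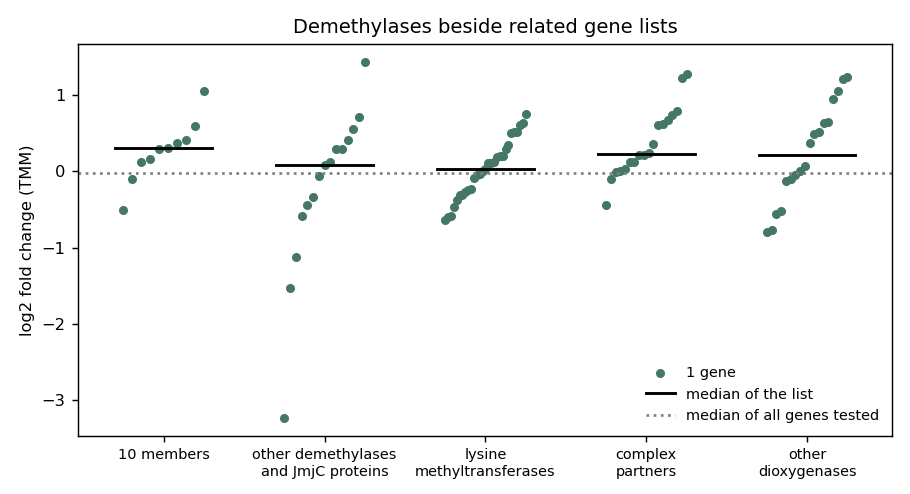
Log2 fold changes after TMM of the 10 demethylases and of 4 lists of related genes, 1 point per gene, with the median of each list and, dotted, that of all genes tested (-0.03). The list medians are 0.30, 0.08, 0.03, 0.23 and 0.22 from left to right, and with library size alone all 5 are below 0.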

How the data were processed

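The authors counted reads per gene from polyadenylated, paired-end libraries and deposited raw counts, 1 file per library, with TPM that follow from the counts and the deposited gene lengths (largest difference 4.72e-06). The submitters' processing notes name FastQC, HISAT2, DESeq2 and the build hg19. The counting tool, the annotation and the use of strand are not given in the sources used here. The quasi-likelihood model of edgeR 4.0.16, run in R 4.3.3 with limma 3.58.1, was fitted to the counts with TMM factors and edgeR's filter on low counts, with group as the only term. p-values were adjusted over all 16222 genes. Standard errors come from the spread of log2 CPM with a prior count of 2, and ratios of counts had 0.5 added. Permutation tests used SciPy 1.17.1. The adjusted p-value threshold was 0.05, with a log2 fold change of 1 where stated. Libraries of a group differed beyond sampling noise (chi-square of 3.62 to 10.3 per degree of freedom), so none was counted as a duplicate.

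The 10 genes, the gene lists and the tests were chosen with earlier results of these data known. All 10 genes are named. From the other lists, genes past both thresholds are named, or else the gene with the smallest adjusted p. KDM5C is named as well, beside KDM5A and KDM5B. KDM3A, the member with the smallest adjusted p, was matched to the 3 genes of highest Pearson r among genes with a mean of at least 1 CPM, of which 1 is not reported here.

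Alternatives were DESeq2 1.42.0, RLE, upper quartile and library size scaling, no filter, at least 10 counts in every sample, a replicate block, an offset for gene length, and leaving out each library. The fit was run on simulated counts of 16169 genes. It recovered 62 of 100 genes changed by an absolute log2 fold change of 0.5 and 99 of 100 changed by 1. It made 8 false calls. The simulation had no shift in scaling between groups, so it does not test the choice of scaling. Promoter windows are from RefSeq (GRCh38.p14) and were not joined to the hg19 positions.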

Additional observations from a re-analysis of the deposited data

How the results depend on the processing

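With library size alone, the counts of members higher and lower at the adjusted p-value threshold went from 6 and 1 to 2 (KDM3A, KDM6B) and 3 (KDM3B, KDM4A, KDM5A), and the count with a log2 fold change of at least 1 from 1 to 0. The same scaling turned the log2 fold changes of KDM2A (-0.0020), KDM2B (-0.01), KDM3B (-0.18) and KDM5B (-0.15). It lowered every fold change by about the shift in the median of all genes, and of all calls it left 20.4% higher in place of 48.4%. Under the other 13 alternatives no member changed sign, and the calls of all members held except that KDM3B passed with the gene length offset. With the replicate block, 6 members were higher and 1 lower, and no call changed. Deviations of same-numbered libraries, over all genes tested, had correlations of -0.02, 0.0040 and -0.03. No pairing by number was seen in this way, but with 3 libraries per group the check cannot exclude it. Leaving out each library moved the log2 ratio difference of KDM2B to KDM2A between -0.032 and 0.04, turning its sign without untreated replicate 3 (0.01) and without r-CRMP2 replicate 3 (0.04). It moved the difference of KDM5B to KDM5A between 0.18 and 0.34, and KDM3A stayed between 1.01 and 1.10 in log2 fold change. KDM5B had the fewest counts (249 to 372), and KDM6B the largest standard error (0.13).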
